A study of Bos taurus with 21 samples.

Results

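ISG15, MX1 and MX2, 3 interferon-stimulated genes, were followed through the hypothalamus of heifers (Bos taurus) on different feeding levels. They were chosen by gene identifier (ENSBTAG00000014707 for ISG15, ENSBTAG00000030913 for MX1 and ENSBTAG00000008471 for MX2), and all 3 were among the 22984 identifiers counted and the 13435 genes that passed the filter on low counts. The names are those of the list that chose the genes, since the deposited tables carry identifiers without symbols. The hypothalamus controls appetite and, through gonadotropin-releasing hormone, the ovarian cycle. Single-read libraries of polyA-selected mRNA were made from 21 samples, with 7 in each of 3 groups, and tissue was collected on day 18 of feeding. Control heifers were fed at 1.2 Mn, the labels' unit of feeding level, and ovulated. Restricted heifers were fed at 0.4 Mn. They were divided by outcome, not by assignment, into restricted anovulatory (RA) heifers, which stopped ovulating, and restricted ovulatory (RO) heifers, which went on ovulating. The labels number the replicates but do not say that each is a separate animal, so p-values measure only the spread between these samples. Libraries are named below by group and replicate, so that RA2 is replicate 2 of the RA group and C7 is replicate 7 of the controls.

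Interferons are cytokines that cells release when they sense a virus or other danger. Type I interferons bind a receptor at the cell surface, and the signal from it switches on interferon-stimulated genes. ISG15 encodes a ubiquitin-like protein that is attached to other proteins and can also be secreted. MX1 and MX2 encode dynamin-like GTPases that block the replication of viruses. In cattle these genes are also known for their response to interferon tau, the signal that an early conceptus sends to the mother. MX1 and MX2 lie next to each other in the RefSeq gene table of the ARS-UCD2.0 assembly and are related in sequence. How the counting treated reads that match both is not given in the sources used here, so the division of reads between MX1 and MX2 is uncertain.

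Total counts ran from 3379050 to 4476586 per library, and CPM below is a gene's count scaled to a common library size, with totals corrected for composition by TMM, a trimmed mean of log ratios between libraries. File names hold what looks like the date of sequencing, and its 4 values are called runs A to D. Each group had 1 library in run A. The other 6 RO libraries were in run B with C1, 5 controls shared run C with RA1 and RA3, and the remaining 4 RA libraries made up run D, so group and run were largely confounded. One control library, C5, stood apart from the rest, with a mean correlation of 0.927 with the other controls. Without symbols for the other identifiers, the interferon pathway genes and the markers of hypothalamus, glia, blood and immune cells were not analysed here, and neither was the tissue label.

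No difference of ISG15, MX1 or MX2 between the feeding groups exceeded the spread between libraries. All 3 genes were highest in the same pair of libraries from restricted heifers, RA2 from a heifer that stopped ovulating and RO1 from a heifer that went on ovulating, at 3.24 to 18.2 times the median of their own group. In bulk tissue, more cells that express a gene and more RNA per cell cannot be told apart.

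ISG15 was counted 13 to 426 times per library. In controls it ran from 8.97 to 36.1 CPM with a median of 14.7, in RA from 3.47 to 115.4 CPM with a median of 10.9, and in RO from 7.58 to 65.5 CPM with a median of 14.7. The groups overlapped throughout. Below the highest value of each group (C7, RA2 and RO1), the next highest was 16.8 CPM in controls, 20.9 in RA and 17.3 in RO. The group means were 16.6 ± 9.12 CPM for controls, 26.4 ± 39.7 CPM for RA and 19.8 ± 20.5 CPM for RO (SD, n = 7 each). The SD exceeded the mean in both restricted groups, and RA held both the highest and the lowest value of all 21 libraries. The lowest, RA4, rested on 13 counts, with an exact 95% binomial interval of 1.84 to 5.90 CPM before TMM scaling. The interval of RA2, on 426 counts, was 104.4 to 126.5 CPM. Such intervals cover counting error only.

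MX1 was counted 171 to 1413 times per library. It ran from 49.2 to 148.8 CPM in controls (median 86.4), from 45.7 to 382.9 CPM in RA (median 77.1) and from 59.95 to 241.2 CPM in RO (median 74.5). RA2 and RO1 were again the highest, followed by RA7 at 159.7 CPM, C7 at 148.8 and RA6 at 130.8. The means were 88.7 ± 31.8 CPM for controls, 132.9 ± 117.4 CPM for RA and 96.9 ± 64.4 CPM for RO (SD, n = 7 each). Apart from RO1, the RO libraries lay close together, between 59.95 and 90.7 CPM.

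MX2 was counted 32 to 860 times per library. It ran from 8.46 to 39.3 CPM in controls (median 14.3), from 8.996 to 233.0 CPM in RA (median 12.8) and from 7.84 to 128.6 CPM in RO (median 15.2). In 19 libraries MX2 did not pass 39.3 CPM, the value of C7, while RO1 and RA2 were at least 3.27 times that level. The means were 17.0 ± 10.2 CPM for controls, 48.1 ± 82.1 CPM for RA and 30.3 ± 43.6 CPM for RO (SD, n = 7 each). Levels were not compared between the 3 genes, because the lengths of the counted gene models were not used here.

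**Figure D1:**
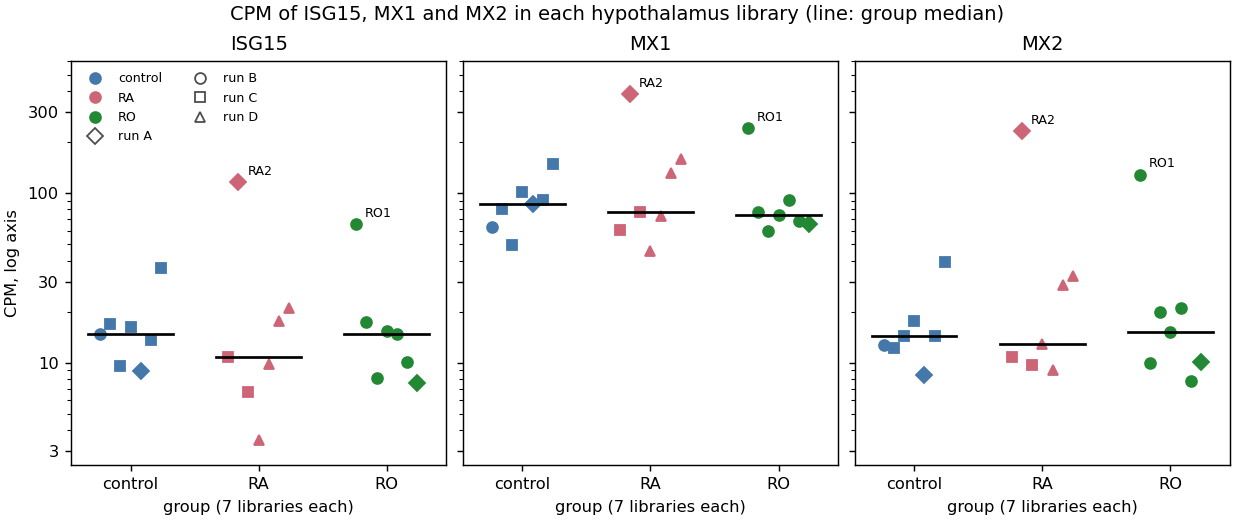
CPM (log axis) of ISG15, MX1 and MX2 in each of the 21 libraries, by group, with the group median as a line. The marker shape is the run as read from the file names. RA2 (run A) and RO1 (run B) lie above every other library in all 3 panels, while the medians of the 3 groups lie close together.

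The comparison of RA with controls placed restricted heifers without ovulation beside well-fed heifers that ovulated. In edgeR's quasi-likelihood test 0 of the 3 genes passed an adjusted p of 0.05, as did 0% of the 13435 genes tested. At an unadjusted p under 0.05 the test had 1244 genes (9.26%), none of them among the 3. The other tools called 0 genes as well. DESeq2 had 1267 at an unadjusted p under 0.05, MX2 among them, and limma-voom had 1563. ISG15 had a log2 fold change of 0.67 (SE 0.62, 95% interval -0.62 to 1.96, edgeR adjusted p = 0.673). MX1 had one of 0.58 (SE 0.40, interval -0.26 to 1.42, edgeR adjusted p = 0.588). MX2 had the largest of the 3, at 1.49 (SE 0.75, interval -0.06 to 3.05, edgeR adjusted p = 0.535, unadjusted p = 0.0584). In DESeq2 the unadjusted p of MX2 was 0.0455 and its adjusted p 0.526.

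These fold changes compare mean counts, in which RA2 weighs heavily. For each gene only 3 of 7 RA libraries lay above the control median. The RA median lay below the control median for all 3 genes, by a log2 difference of -0.42 for ISG15, -0.16 for MX1 and -0.15 for MX2. The mean log2 CPM differed by -0.07, 0.30 and 0.54 in the same order (exact two-sided permutation tests over 3432 arrangements, p = 0.918, 0.537 and 0.505). Without RA2 the edgeR log2 fold change was -0.50 for ISG15, 0.05 for MX1 and 0.04 for MX2. In run A the single RA and control libraries measured 115.4 against 8.97 CPM for ISG15. In run C the 2 RA libraries measured 10.9 and 6.74 CPM, against 9.60 to 36.1 CPM in 5 controls. Fitted to runs A and C with a term for run, the log2 fold changes were 0.25 for ISG15, 0.25 for MX1 and 0.59 for MX2, each with an edgeR adjusted p of at least 0.875. Limma-voom, which models log2 values and here weighted libraries by quality, gave 0.07, 0.41 and 0.54 for ISG15, MX1 and MX2. None of the 3 genes had RA and control libraries that did not overlap, which held for 0.067% of all genes tested.

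RO against control addressed the restricted diet among heifers that all ovulated. None of the 3 genes passed in edgeR's test, which called 0% of all genes and had 864 (6.43%) at an unadjusted p under 0.05, while DESeq2 and limma-voom called 0 with 866 and 682. The log2 fold change was 0.24 for ISG15 (SE 0.63, interval -1.06 to 1.55), 0.12 for MX1 (SE 0.41, interval -0.72 to 0.97) and 0.82 for MX2 (SE 0.76, interval -0.75 to 2.39). The edgeR adjusted p was 0.945, 0.959 and 0.843 in the same order. No RO and control groups were free of overlap for these genes, where 0.104% of all genes were. Of 7 RO libraries, 4 lay above the control median for ISG15, 2 for MX1 and 4 for MX2. The mean log2 CPM differed by -0.01, 0.03 and 0.25 (exact permutation p = 0.988, 0.932 and 0.717). All 3 signs turned without RO1, to -0.45 for ISG15, -0.29 for MX1 and -0.29 for MX2. With run as a covariate they were -0.69, -0.27 and -0.31, and in runs A and B alone, where 2 controls face 7 RO libraries, 0.29, 0.26 and 0.998. In run B the only control, C1, measured 14.7 CPM of ISG15, and the RO libraries other than RO1 measured 8.11 to 17.3.

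RA against RO asked whether the genes differed between heifers on the same diet that stopped or kept ovulating. Again 0 of 3 passed in edgeR's test and 0% of all genes did, although 2783 genes (20.7%) had an unadjusted p under 0.05. Once run was a covariate, edgeR's unadjusted count was 291 in place of 2783. The same change took the count from 1244 to 769 where RA met controls, and from 864 to 469 where RO did. Group and run were largely confounded, and the part of run in the 2783 was not tested. Limma-voom called 0 genes (2732 unadjusted) and DESeq2 called 478 (4.31% of those with an adjusted p, 2848 unadjusted), none of them among the 3. The count in edgeR's test was 399 without RO4, 21 without C7, 17 without RA3 and 1 without RO7. The log2 fold change was 0.42 for ISG15 (SE 0.62, interval -0.86 to 1.70), 0.46 for MX1 (SE 0.40, interval -0.38 to 1.297) and 0.68 for MX2 (SE 0.72, interval -0.82 to 2.17), with edgeR adjusted p of 0.723, 0.526 and 0.611. The groups overlapped for all 3 genes, and did not for 0.662% of all genes. Each held 1 high library. Without RA2 the values were -0.76, -0.09 and -0.80, and without RO1 they were 1.11, 0.87 and 1.77. The mean log2 CPM differed by -0.07, 0.27 and 0.29 (exact permutation p = 0.930, 0.579 and 0.686). With run as a covariate the fold changes were 1.51, 0.85 and 1.69, with an edgeR adjusted p of 1 for each. That fit drew its contrast of RA with RO on the libraries outside run D, RA2 among them, and the runs share only 1 library of each group.

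Leaving out RA2 and RO1 together, a choice made after seeing the data, gave narrower intervals, all of which included 0. For RA against control MX1 came to a log2 fold change of 0.05 (interval -0.48 to 0.57) and MX2 to 0.03 (interval -0.73 to 0.80). ISG15 came to -0.50 (interval -1.25 to 0.24). ISG15, MX1 and MX2 were at -0.44, -0.28 and -0.28 in the comparison of RO with controls and at -0.06, 0.33 and 0.31 in that of RA with RO. No gene passed in edgeR's test in any of these comparisons (0% of 13470). At an unadjusted p under 0.05, RA against control had 1328 genes (9.86%), RO against control had 789 (5.86%) and RA against RO had 2823 (21%). With these 19 libraries the mean of MX1 was 88.7 ± 31.8 CPM for controls (n = 7), 91.2 ± 44.2 CPM for RA and 72.8 ± 10.8 CPM for RO (SD, n = 6 each).

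**Figure D2:**
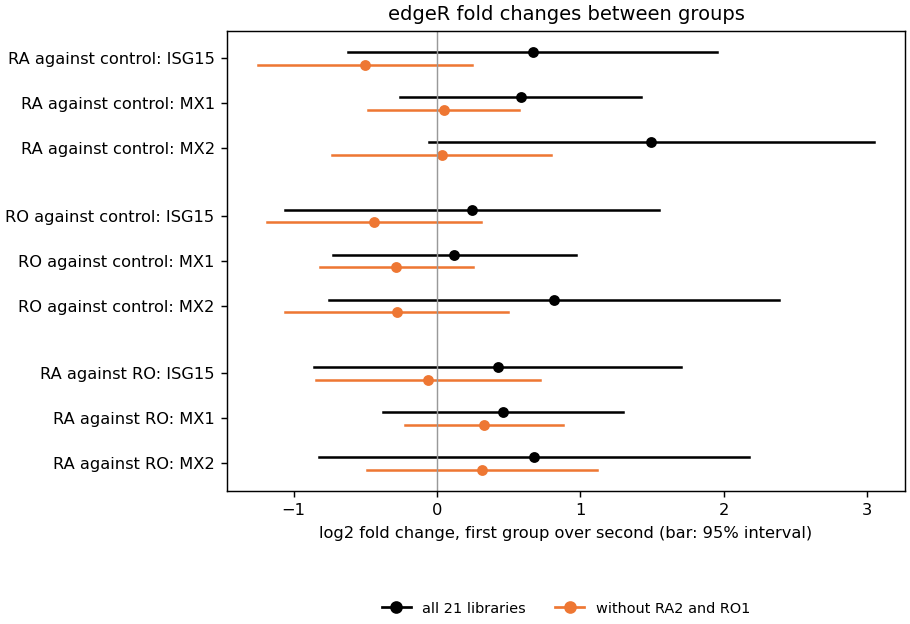
edgeR log2 fold changes of ISG15, MX1 and MX2 for the 3 comparisons, with 95% intervals, from all 21 libraries (black) and without RA2 and RO1 (orange). All 18 intervals include 0, and the orange ones are the narrower.

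The spread within groups was among the widest of all genes. The within-group SD of log2 CPM was 1.13 for ISG15, 0.77 for MX1 and 1.28 for MX2, against a median of 0.23 over the genes tested. MX2 stood at rank 55, ISG15 at rank 86 and MX1 at rank 372 of 13435. Among the 1000 genes nearest in mean level, the SD of MX2 ranked 2, that of MX1 3 and that of ISG15 5. Counting error was a small part of this. In RA the coefficient of variation of ISG15 was 150.4%, where counting alone at its mean count gives 9.87%, and in controls, which hold neither RA2 nor RO1, it was 55.1% against 12.5%. Without RA2 and RO1 the SD was 0.69, 0.50 and 0.68 for ISG15, MX1 and MX2, still above 96.1%, 89.1% and 95.9% of genes. Group membership accounted for 0.0973% of the variance of log2 CPM for ISG15, 3.35% for MX1 and 3.36% for MX2, against a median of 12.4% over all genes. Runs accounted for 6.80%, 8.77% and 4.89%, against a median of 20.4%.

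The levels of the 3 genes varied together from library to library. Over 21 libraries the log2 CPM of ISG15 and MX1 correlated with r = 0.91 and rho = 0.80 (permutation p = 1e-05, the smallest that 100000 permutations can give, and 3e-05). ISG15 and MX2 had r = 0.87 and rho = 0.67 (permutation p = 1e-05 and 0.00125), and MX1 and MX2 had r = 0.89 and rho = 0.59 (permutation p = 2e-05 and 0.00557). Adjusted over the 3 pairs by the Benjamini-Hochberg method, the p of r was 2e-05 for each pair and that of rho 9e-05, 0.00187 and 0.00557. Without the 2 libraries farthest from the median, which were RA2 and RO1 for each pair, r was 0.77 for ISG15 and MX1, 0.61 for ISG15 and MX2 and 0.68 for MX1 and MX2 (permutation p = 0.00011, 0.00481 and 0.0014, adjusted 0.00033, 0.00481 and 0.0021). In these 19 libraries rho was 0.74, 0.55 and 0.44 (permutation p = 0.00046, 0.0159 and 0.0589). Each r was thus lower in the other libraries and still passed 0.05, while the rank correlation of MX1 with MX2 did not.

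Within the groups r was positive for every pair. In controls it was 0.76 for ISG15 and MX1, 0.89 for ISG15 and MX2 and 0.65 for MX1 and MX2 (exact permutation tests over 5040 pairings, n = 7, p = 0.0556, 0.0236 and 0.114). In RA it was 0.96, 0.92 and 0.94 (exact permutation p = 0.00179, 0.00794 and 0.00853), and in RO 0.96, 0.85 and 0.91 (exact permutation p = 0.00337, 0.0615 and 0.0482). Adjusted over these 9 values the exact permutation p was at most 0.0425 for all pairs in RA, for ISG15 and MX1 in RO and for ISG15 and MX2 in controls, and at least 0.0692 for the other 4. Rank correlation within RO was low for the pairs with MX2, at rho of 0.32 with ISG15 and 0.46 with MX1 (exact permutation p = 0.498 and 0.302). The other values of rho within groups ran from 0.50 to 0.86. No rho within a group passed 0.05 once adjusted over the 9 values of rho (exact permutation p at least 0.107). Within run B r was 0.95, 0.83 and 0.91 (exact permutation p = 0.0117, 0.0821 and 0.054), and within run C, which holds neither RA2 nor RO1, 0.80, 0.90 and 0.76 (exact permutation p = 0.0387, 0.0117 and 0.0502). Adjusted over these 6 values, the exact permutation p was 0.0351 for ISG15 and MX1 in run B and for ISG15 and MX2 in run C, and at least 0.0648 for the rest. In run B rho was 0.86, 0.32 and 0.46, and in run C 0.79, 0.71 and 0.75 (adjusted exact permutation p at least 0.132). Runs A and D held 3 and 4 libraries, too few for a value.

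**Figure D3:**
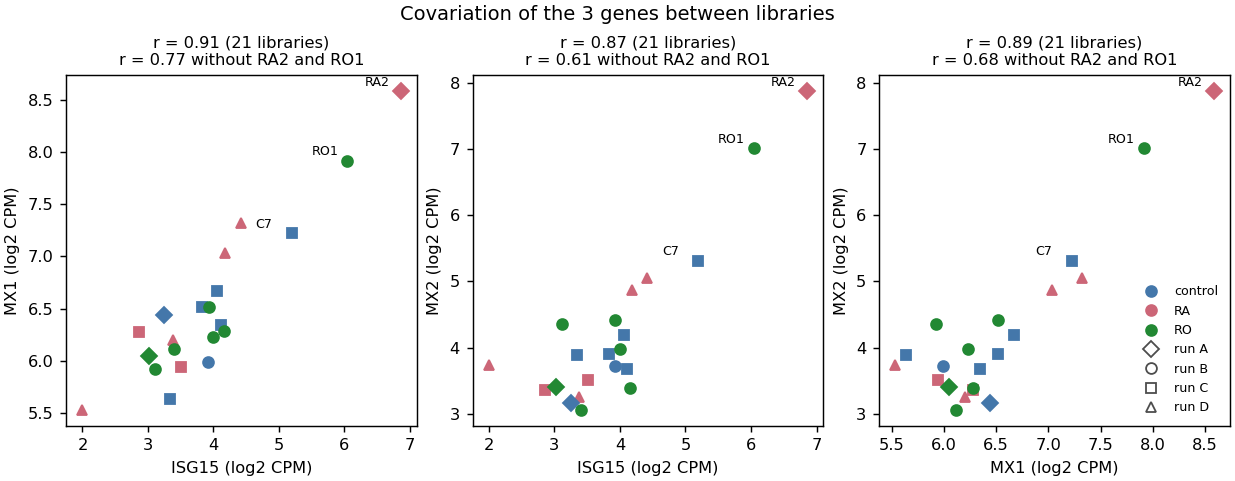
Log2 CPM of each pair of genes in the 21 libraries, coloured by group with the run as the marker shape. RA2 and RO1 lie at the upper right of every panel, and C7 lies below them. The remaining libraries show a looser trend. Over all libraries r is 0.87 to 0.91, and without RA2 and RO1 it is between 0.61 and 0.77.

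The genes stood above their group medians in the same order, MX2 before ISG15 before MX1, in each of the 3 libraries that were highest for ISG15. RA2 was 18.2 times the RA median for MX2, 10.6 times for ISG15 and 4.97 times for MX1. RO1 was 8.47 times the RO median for MX2, 4.46 times for ISG15 and 3.24 times for MX1. C7 was 2.75 times the control median for MX2, 2.46 times for ISG15 and 1.72 times for MX1. These 3 libraries came from 3 different groups and 3 different runs (A, B and C). The 3 libraries were picked by ISG15, itself one of the genes ordered, and for MX1 RA7 lay above C7. RA7, in run D, was 2.54, 1.92 and 2.07 times the RA median for MX2, ISG15 and MX1. RA6, in the same run, was 2.23, 1.62 and 1.70 times that median. In RA7 and RA6 the order did not hold, since MX1 stood above ISG15.

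The same counts were also expressed relative to MX1 in each library, which does not depend on the scaling of libraries. For each 100 counts of MX1, RA2 had 60.9 counts of MX2 (exact 95% binomial interval 55.9 to 66.3) and RO1 had 53.3 (47.3 to 60.01). The next highest were RO3 with 33.2 (25.5 to 42.9) and C3 with 29.0 (21.3 to 39.0), and C7 had 26.4 (21.9 to 31.7). The lowest was C5, with 9.79 (6.63 to 14.02). The intervals of RA2 and RO1 overlapped each other and no other library's. ISG15 counts per 100 of MX1 were also highest in RA2, at 30.2 (27.0 to 33.6), and in RO1, at 27.2 (23.3 to 31.6). The intervals of C7, at 24.2 (19.95 to 29.3), and C1, at 23.2 (17.2 to 30.9), overlapped those of both. So did the intervals of RO2, RO4, C2 and C3, while that of RA1 overlapped the interval of RO1 only. RA4 had the lowest ISG15 relative to MX1, 7.60 (3.97 to 13.4).

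**Figure D4:**
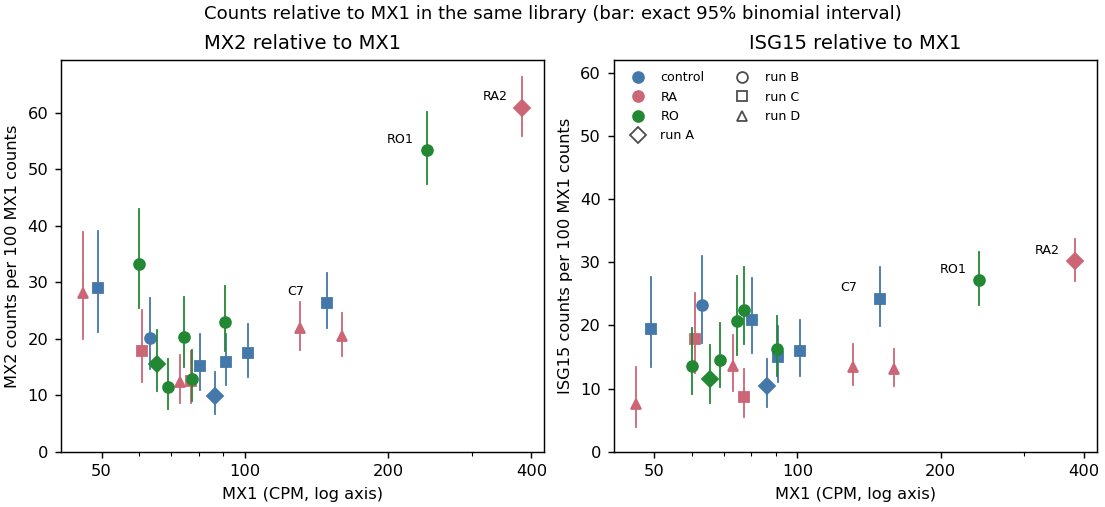
Counts of MX2 (left) and of ISG15 (right) per 100 counts of MX1 in the same library, against the CPM of MX1 (log axis), with exact 95% binomial intervals for counting error. RA2 and RO1 stand at 60.9 and 53.3 for MX2, above the 33.2 of the next library, whereas for ISG15 they lead by less.

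The depth and overall profile of the libraries with high values were set beside them. RO1 had the smallest total of all libraries, 3379050 counts, and C7 and RA2 came at ranks 3 and 4 from below, with 3698427 and 3703052. RO4, at rank 2 with 3658887, measured 15.5 CPM of ISG15, close to the RO median of 14.7. The mean correlation of log2 CPM over all genes with the libraries of the same group was 0.966 for RA2, inside the 0.960 to 0.972 of the other RA libraries, and 0.958 for RO1, below the 0.963 to 0.973 of the other RO libraries. In run A the other libraries, C5 and RO7, measured 8.97 and 7.58 CPM of ISG15 against 115.4 in RA2. C5, the library apart from all others, had the lowest ISG15 and MX2 of the controls and a median MX1. The part of depth in the high values was not tested.

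The genes whose pattern was most like the 3 were sought by Pearson's r of log2 CPM over the 21 libraries, as a description. ENSBTAG00000005816 was nearest to ISG15 (r = 0.92) and to MX1 (r = 0.96), ENSBTAG00000014628 was nearest to MX2 (r = 0.95), and ENSBTAG00000012335 was next for MX1 (r = 0.93) and MX2 (r = 0.94) and also near for ISG15 (r = 0.91). Among 13434 genes MX1 ranked 2 for ISG15, and MX2 ranked 8 for ISG15 and 7 for MX1. ISG15 ranked 5 for MX1 and 16 for MX2, and MX1 ranked 10 for MX2. ENSBTAG00000005816 measured 110.8 CPM in RA2 and 80.5 in RO1, against at most 62.1 in the other 19 libraries. For ENSBTAG00000012335 the values were 212.2 and 112.9 CPM, against at most 58.6. For ENSBTAG00000014628 they were 359.0 and 146.6 CPM, against at most 98.2, in C7. All 3 identifiers had RA2 first and RO1 second, as ISG15, MX1 and MX2 had.

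Beyond the members, 28 genes reached r of 0.8 with ISG15, 29 with MX1 and 30 with MX2, and 20 of these were shared by all 3. A tested gene had a median of 13 such partners, so the number itself was not unusual (61.4% to 62.5% of genes had fewer). Without RA2 and RO1, 1 gene reached that value with ISG15, 7 with MX1 and 2 with MX2, and 0 were shared by all 3, while the median over all genes was 20. ENSBTAG00000005816 was still the nearest to MX1 (r = 0.88) and ENSBTAG00000014628 to MX2 (r = 0.86) in those 19 libraries. MX2 fell to rank 105 for MX1 there (r = 0.68), and MX1 was at rank 3 for ISG15 (r = 0.77). MX2 was at rank 53 for ISG15, and ISG15 at rank 14 for MX1. For MX2, MX1 was at rank 44 and ISG15 at rank 106.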

How the data were processed

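Each library came as a deposited table of unnormalized read counts by gene identifier. CASAVA 1.4, Bowtie, SAMtools and HTSeq are listed in the submitters' processing notes, with no settings. Not given in the sources used here are the genome build, annotation, strand setting and treatment of duplicate or multiply mapped reads. The most abundant gene held at most 0.185% of a library's counts. Of 22984 identifiers 0 matched a symbol in the RefSeq table used here, so no coordinates or sequences are given and the pathway and cell type lists were not tested.

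Genes were filtered with filterByExpr (minimum count 10, minimum total 15), scaled by TMM (the trimmed mean of M-values) and fitted in edgeR 4.0.16 (R 4.3.3) with the robust quasi-likelihood test on 3 group means over 21 libraries and Benjamini-Hochberg adjustment over 13435 genes. The SE of a log2 fold change was taken as its size over the root of F. Log2 CPM used a prior count of 2. No pair among 210 looked like one library deposited again (chi-square over degrees of freedom at least 2.15, where sampling noise gives about 1). DESeq2 1.42.0 replaced no count of the 3 genes. Tested on simulated counts for RA against control (13380 genes), the test recovered 62% of 1.5-fold, 80% of 2-fold and 94% of 4-fold changes. These simulations used each gene's own fitted spread, and the changes were placed in genes drawn at random. The spread of the 3 genes was wider than that of most (biological coefficient of variation 51.1% to 88.4%, 18.3% common to all genes). The recovered shares therefore do not apply to ISG15, MX1 and MX2.

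The genes and lists were chosen with earlier results of these data known. Besides ISG15, MX1 and MX2, the rule named the 2 genes with the highest r for each. Alternatives were upper-quartile and RLE scaling, no filter, a stricter filter (5 CPM in 7 libraries), DESeq2, limma-voom 3.58.1 with quality weights, run as a covariate, shared runs, the 2 compared groups only, the replicate block, a threshold of 0.1, a prior count of 0.5, plain totals and leaving out libraries.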

Additional observations from a re-analysis of the deposited data

Results flagged for a closer look

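Of 9 sets of 7 libraries (3 genes in 3 groups), 4 were flagged by Dixon's 95% limit. In these the gap of 1 library to its neighbour took up more of the range than the limit allows. For normally distributed values chance picks out about 1 in 20 sets. The share of flagged sets over all genes tested was not computed, so the 4 are not read as unusual for these genes. The 3 genes vary together, so the 4 sets are not independent. RO1 stood out for ISG15 at 6.04 log2 CPM (next highest RO library 4.16), for MX1 at 7.92 (next 6.51) and for MX2 at 7.01 (next 4.42). RA2 stood out for MX2 at 7.87 log2 CPM (next highest RA library 5.05). RA2 was also the highest RA library for ISG15 and MX1, with gaps of 0.502 and 0.412 of the range, and C7 the highest control for ISG15, with a gap of 0.555.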

How the results depend on the processing

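No fold change of ISG15, MX1 or MX2 passed an adjusted p of 0.05 under any alternative run, and edgeR's adjusted p-values and those of the other tools ranged from 0.148 to 1. Without both RA2 and RO1, an alternative chosen after seeing the data, the log2 fold change of ISG15 turned to -0.50 for RA against control and -0.06 for RA against RO, and those of ISG15, MX1 and MX2 for RO against control to -0.44, -0.28 and -0.28. The latter 3 were -0.20, -0.042 and -0.0072 in limma-voom and -0.69, -0.27 and -0.31 with run as a covariate. For RA against control limma-voom gave 0.07, 0.41 and 0.54, for RA against RO 0.27, 0.45 and 0.55. Leaving out 1 library gave -0.50 to 0.98 (ISG15), 0.05 to 0.76 (MX1) and 0.04 to 1.85 (MX2) for RA against control, -0.45 to 0.56, -0.29 to 0.30 and -0.29 to 1.17 for RO against control, and -0.76 to 1.11, -0.086 to 0.87 and -0.80 to 1.77 for RA against RO. The low ends came without RA2 or, for RO against control, RO1. The count of genes for RA against RO was 478 with DESeq2, 1 with the 2 groups alone, 299 at a threshold of 0.1 and 0 to 399 leaving out 1 library. The cause was not tested. A fit of RA and RO to their shared run was not made, since it holds 1 library of each. With the replicate block 0 genes passed throughout (1093, 655 and 2502 at an unadjusted p under 0.05 for RA against control, RO against control and RA against RO), and the log2 fold changes of ISG15, MX1 and MX2 were 0.12, 0.39 and 0.77, 0.11, 0.09 and 0.53, and 0.02, 0.31 and 0.24 in these comparisons. Libraries with the same replicate number were not alike on average (mean correlation of deviations -0.0448 over 21 pairs, 3 of 21 best with their own number). That does not settle whether the numbers mark a pairing. Pearson's r did not pass an unadjusted p of 0.05 in 6 of 15 values within a group or run: ISG15 and MX1 in controls (0.76), ISG15 and MX2 in RO (0.85) and run B (0.83), and MX1 and MX2 in controls (0.65), run B (0.91) and run C (0.76). By adjusted p 8 of 15 did not pass, with MX1 and MX2 in RO (0.91) and ISG15 and MX1 in run C (0.80) besides. No rho within a group or run passed once adjusted (exact permutation p at least 0.107). Leaving out 1 library gave r of 0.86 to 0.93, 0.78 to 0.92 and 0.81 to 0.91 for the 3 pairs. Low counts limit ISG15, with 13 to 45 counts in 9 libraries.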

Other observations

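How many other genes were highest in RA2 and RO1 was counted after seeing the values, with no test. For 80 of 13435 genes these were the 2 highest of the 21 libraries, in either order, and 56 of the 80 had RA2 first. Over the 210 pairs of libraries the median was 28.5 genes, and RA2 with RO1 ranked 46. For 22 genes both libraries were at least 1.5 times the highest of the other 19. The median over pairs was 0 genes and the next highest pair had 13. MX2 was among the 22, with the lower of the 2 libraries at 3.27 times the highest other, and so were ISG15 at 1.81 times and MX1 at 1.51 times, just inside that limit.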
